A study of Mus musculus with 12 samples.

Results

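Interferon-inducible GTPases are large GTP-binding proteins that cells make in quantity when they sense interferon. The genes described here are 10 of the 27179 in the deposited count table, taken by symbol from the guanylate-binding proteins (GBPs: Gbp2, Gbp3, Gbp5, Gbp7 and Gbp9) and the immunity-related GTPases (IRGs: Irgm1, Irgm2, Igtp, Iigp1 and Ifi47). All 10 were in the table, and all 10 were among the 13415 genes with enough reads to be tested. They were measured by RNA sequencing in 12 libraries of conventional dendritic cells sorted from mouse spleen. Type 1 cells (cDC1) and type 2 cells (cDC2) were each taken from mice labelled zfp366-/- (KO) and from wild-type mice (WT), with 3 libraries per group. All mice were female C57/BL6, no label gives an age or a further treatment, and spleens were digested with collagenase and DNAse before the cells were isolated. The deleted gene encodes the zinc finger protein DC-SCRIPT, which dendritic cells make. The labels name no promoter or Cre driver for the KO and do not say in which cells the gene was lost. Each of 6 mouse pools, 3 per genotype, gave 1 cDC1 and 1 cDC2 library, so the replicates were pools and not single animals.

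GBPs and IRGs act together inside infected cells. Effector members gather on the vacuoles of intracellular parasites and bacteria and help to break them open, while the regulatory IRGs (Irgm1, Irgm2 and Igtp) sit on host membranes and hold the effector IRGs in an inactive state there. Their genes are textbook targets of interferon gamma, and their promoters are known for 2 kinds of short sequence: gamma-activated sites (GAS) and the interferon-stimulated response element (ISRE), which IRF1 binds. GBPs are also known for linking bacterial products to the inflammasome.

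Some of the genes lie close together. On GRCm38, Gbp5, Gbp7, Gbp3 and Gbp2 stand in this order on chromosome 3 within 141075 bases, all on the plus strand, and Gbp9 lies on chromosome 5. Irgm1, Ifi47, Igtp and Irgm2 lie on chromosome 11, and Iigp1 lies apart from both clusters. RefSeq promoter windows on GRCm38.p6, each of 300 bases from 250 before to 50 after a gene start, were available for 8 of the 10 genes, and Gbp3 had a pair of them. The windows below are those of the 2 GBPs with the clearest KO differences in cDC1 and of the 3 regulatory IRGs. Capitals mark matches to an ISRE core (GAAA, 2 bases of any kind and GAAA again, which reads TTTC, 2 bases and TTTC where it lies on the other strand) and to a GAS core (TTCNNNGAA, the same pattern on both strands).
Gbp2, chr3:142620413-142620712, plus strand: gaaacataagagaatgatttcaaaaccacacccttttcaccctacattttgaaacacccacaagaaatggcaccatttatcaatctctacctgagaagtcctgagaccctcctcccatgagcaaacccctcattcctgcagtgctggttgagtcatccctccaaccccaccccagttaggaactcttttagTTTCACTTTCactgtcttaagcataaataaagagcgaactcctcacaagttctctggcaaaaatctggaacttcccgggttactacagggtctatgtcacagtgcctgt
Gbp3, chr3:142559794-142560093, plus strand: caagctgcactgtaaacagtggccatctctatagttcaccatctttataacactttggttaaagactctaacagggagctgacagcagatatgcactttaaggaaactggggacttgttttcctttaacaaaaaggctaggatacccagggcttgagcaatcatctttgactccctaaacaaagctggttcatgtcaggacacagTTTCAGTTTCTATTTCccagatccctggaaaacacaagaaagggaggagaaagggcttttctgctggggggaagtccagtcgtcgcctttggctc
Irgm1, chr11:48871371-48871670, minus strand, written 5′ to 3′: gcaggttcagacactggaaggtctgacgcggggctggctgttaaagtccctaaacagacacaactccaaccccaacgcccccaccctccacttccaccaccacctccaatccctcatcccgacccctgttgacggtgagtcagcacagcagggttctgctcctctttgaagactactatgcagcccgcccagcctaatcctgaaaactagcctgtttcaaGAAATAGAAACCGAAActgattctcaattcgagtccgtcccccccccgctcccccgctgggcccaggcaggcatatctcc
Igtp, chr11:58199306-58199605, plus strand: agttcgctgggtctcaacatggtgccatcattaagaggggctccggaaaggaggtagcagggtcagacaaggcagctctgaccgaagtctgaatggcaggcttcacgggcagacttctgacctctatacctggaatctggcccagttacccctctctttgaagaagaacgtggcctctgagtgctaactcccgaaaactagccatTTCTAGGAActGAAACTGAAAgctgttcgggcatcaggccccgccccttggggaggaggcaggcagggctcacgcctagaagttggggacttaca
Irgm2, chr11:58214727-58215026, plus strand: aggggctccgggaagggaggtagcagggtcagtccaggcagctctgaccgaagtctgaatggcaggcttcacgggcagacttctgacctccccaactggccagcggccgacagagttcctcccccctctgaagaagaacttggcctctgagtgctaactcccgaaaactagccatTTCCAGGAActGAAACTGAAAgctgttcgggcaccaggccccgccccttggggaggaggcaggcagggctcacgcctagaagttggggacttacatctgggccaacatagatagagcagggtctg

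Both strands were searched for each core. An ISRE core was present in 7 of the 9 windows, whereas 3.44% of all 32851 RefSeq mouse promoter windows of this length held one. A GAS core was present in 4 of the 9 windows (Gbp5, Gbp7, Igtp and Irgm2), against 8.30% of all windows. Those 4 windows held both cores, which 0.454% of all windows did. The ISRE core began 59 bases before the start of Gbp2. In the Gbp3 window there were 2 overlapping ISRE cores, beginning 45 and 39 bases before the start, and the Irgm1 window also had an overlapping pair, beginning 30 and 24 bases before it. In Igtp and Irgm2 a GAS core stood just upstream of an ISRE core. These windows are near copies of each other, with 90.4% identity over 270 aligned columns. No match was found in the Ifi47 window or in the second Gbp3 window. A short stretch just after each gene start was looked for near the 5′ ends of the annotated GENCODE transcripts. Both transcripts of Gbp2 held it. None of those of Gbp7 and Irgm2 did, and only some of those of Gbp3, Gbp5, Irgm1, Igtp and Ifi47. Transcript start positions were not compared, so the windows may not cover every start. Such matches describe letters and do not show binding.

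**Figure D1:**
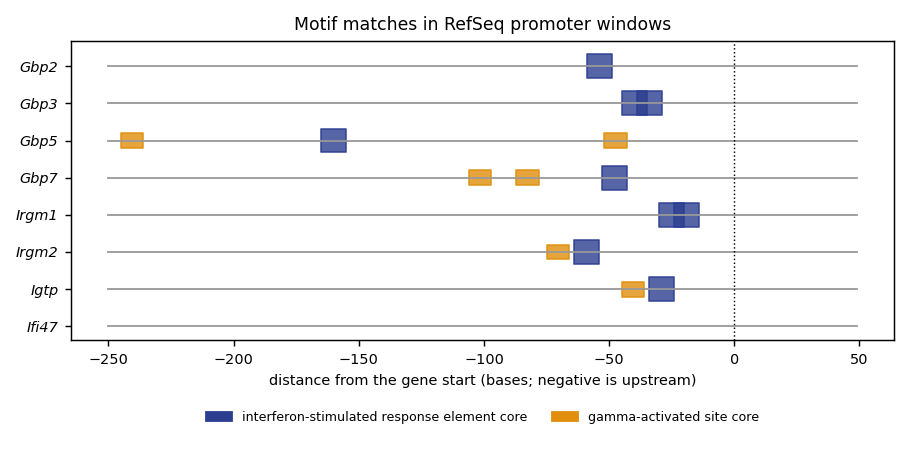
Positions of ISRE core and GAS core matches along the RefSeq promoter windows of 8 GTPase genes, with distance from the gene start in bases on the x axis. For Gbp3 both windows share the row, and its matches come from the first. In Gbp2, Gbp3, Gbp7, Irgm1, Irgm2 and Igtp the ISRE cores lie between 64 and 15 bases before the start, while that of Gbp5 begins 165 bases before it and Ifi47 has none.

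Library depth lay between 11330503 and 36761685 counts. The 10 GTPases together took 0.0462% to 0.0472% of the counts in cDC1 KO libraries and 0.0169% to 0.0181% in cDC1 WT libraries. Levels are given below in CPM, the counts relative to library totals scaled by the trimmed mean of M values (TMM), with n = 3 in each group. Changes are log2 fold changes, each with a standard error (SE). A gene was called when its adjusted p (edgeR's quasi-likelihood test, Benjamini-Hochberg over all genes tested) was below 0.05. The deleted gene was examined first. Zfp366 had 48.8, 48.4 and 45.4 CPM in cDC1 KO libraries and 152, 89.2 and 67.5 CPM in cDC1 WT libraries (log2 fold change -1.12, edgeR adjusted p = 0.0326). In cDC2 it had 55.0, 80.6 and 65.1 CPM in the libraries labelled KO and 52.6, 62.4 and 57.4 CPM in WT libraries, so its level did not bear out the KO label there. Counts per gene do not show which exons were read, and the cDC2 libraries are therefore called "labelled KO". The subset labels were checked with marker genes. A list of 8 cDC1 markers summed to 4177 to 4554 CPM in cDC1 KO, 4768 to 6124 CPM in cDC1 WT, 129 to 138 CPM in cDC2 labelled KO and 110 to 263 CPM in cDC2 WT libraries.

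The first comparison asked how the levels of these genes differed between cDC1 KO and cDC1 WT libraries. Of the 10 GTPases, 7 rose in KO cDC1 (Gbp2, Gbp3, Gbp7, Gbp9, Irgm1, Irgm2 and Ifi47) and none fell. Among all genes tested, 3.6% rose and 1.72% fell. All 10 fold changes were positive, with a median of 1.05 on the log2 scale against 0.00 over all genes tested. The summed level of the 10 was 475, 440 and 451 CPM in KO libraries, against 159, 193 and 186 CPM in WT libraries. With library totals alone as the scaling, the mean sums were 467 CPM in KO and 174 CPM in WT.

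Among the GBPs, Gbp2, which coats parasite vacuoles, had the highest level in cDC1 KO. Gbp2 stood at 134, 119 and 126 CPM in cDC1 KO libraries, against 27.4, 26.2 and 25.1 CPM in cDC1 WT libraries. The groups were far apart and each was tight, and the level was 4.81-fold higher in KO (log2 fold change 2.27, SE 0.20, edgeR adjusted p = 5.5e-05). Gbp3, its neighbour on chromosome 3, had 22.8, 22.1 and 25.2 CPM in KO and 4.84, 5.00 and 5.38 CPM in WT libraries. That was a 4.61-fold higher level, again with no overlap (log2 fold change 2.20, SE 0.29, edgeR adjusted p = 0.000759). Gbp9, from the chromosome 5 cluster, had 75.2, 86.3 and 80.7 CPM in KO and 41.5, 39.0 and 35.3 CPM in WT libraries. Its rise was smaller, at 2.09-fold (log2 fold change 1.07, SE 0.21, edgeR adjusted p = 0.0109).

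Gbp7, known for bringing oxidase and autophagy factors to vacuoles, was scarce. It had 87, 163 and 98 reads (3.46, 6.44 and 4.01 CPM) in cDC1 KO libraries, against 16, 11 and 9 reads (0.880, 0.561 and 0.520 CPM) in cDC1 WT libraries. The fold change was the highest of the 10 but also the least certain (log2 fold change 2.82, SE 0.74, edgeR adjusted p = 0.0473). Gbp5, which has been tied to NLRP3 inflammasome assembly, was not called. It had 35.8, 38.4 and 36.8 CPM in KO and 27.8, 17.3 and 14.5 CPM in WT libraries. Every KO library was above every WT library, but the WT libraries were spread and the test missed the threshold (log2 fold change 0.90, 95% interval 0.16 to 1.63, edgeR adjusted p = 0.22).

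Of the regulatory IRGs, Irgm1, which restrains the effector IRGs and acts in defence against mycobacteria, had 78.1, 61.1 and 63.3 CPM in cDC1 KO libraries and 23.8, 37.9 and 37.1 CPM in cDC1 WT libraries. The level was 2.05-fold higher in KO (log2 fold change 1.04, SE 0.27, edgeR adjusted p = 0.0436). Irgm2, a regulator of the same kind, had 24.2, 22.9 and 19.5 CPM in KO and 7.20, 13.5 and 11.9 CPM in WT libraries, without overlap. Its rise was of like size (log2 fold change 1.03, SE 0.26, edgeR adjusted p = 0.036). Igtp, the third regulator, had 28.9, 25.3 and 26.7 CPM in KO and 12.6, 20.7 and 19.5 CPM in WT libraries. The groups did not overlap, yet Igtp was not called (log2 fold change 0.62, 95% interval -0.01 to 1.24, edgeR adjusted p = 0.328).

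Of the 2 effector IRGs, Ifi47 was called and Iigp1 was not. Ifi47 had 61.6, 49.6 and 58.6 CPM in cDC1 KO libraries, against 9.07, 21.3 and 25.4 CPM in cDC1 WT libraries, and was 3.04-fold higher in KO (log2 fold change 1.61, SE 0.30, edgeR adjusted p = 0.00731). Iigp1, an effector that loads onto Toxoplasma vacuoles, had 11.2, 8.76 and 10.9 CPM in KO and 3.68, 11.4 and 10.99 CPM in WT libraries. Its groups overlapped, since WT replicates 2 and 3 lay within or above the KO range and WT replicate 1 was far lower (log2 fold change 0.25, 95% interval -0.57 to 1.06, edgeR adjusted p = 0.795). Iigp1 was the one member with overlapping cDC1 groups. For the other 9 every KO library was above every WT library, a separation seen for 15.5% of all genes tested. Whether the 2 effectors differed in their KO effect was not tested.

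**Figure D2:**
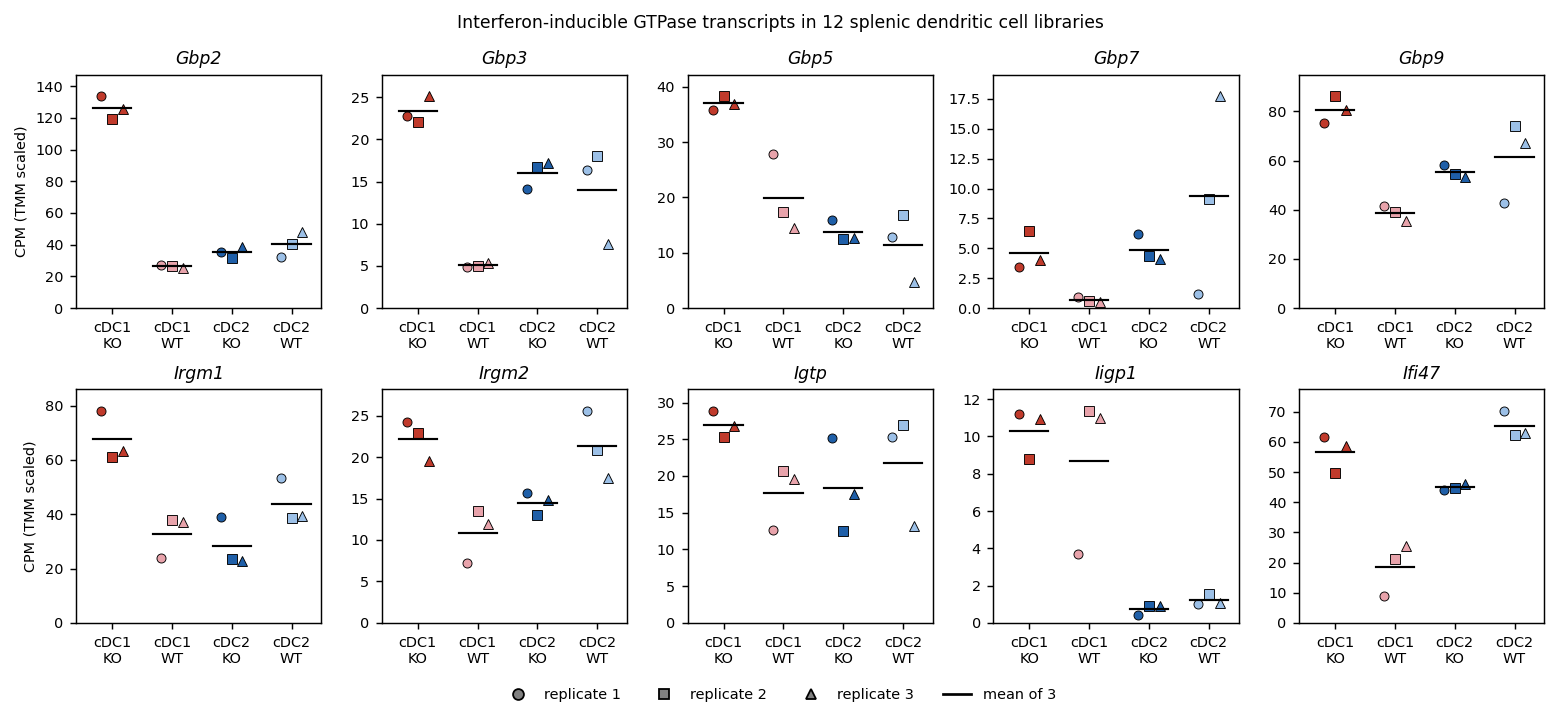
CPM of each GTPase gene in the 12 libraries, grouped as cDC1 KO, cDC1 WT, cDC2 KO and cDC2 WT, where KO is the label; points are libraries, marker shape gives the replicate number and bars the mean of 3. Gbp2 stands at 119 to 134 CPM in cDC1 KO and at 48.3 CPM or less in the other 9 libraries, whereas Iigp1 is at 1.53 CPM or less in all cDC2 libraries.

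The calls for Gbp2 and Gbp3 held in all 20 alternative settings. That for Ifi47 held in 19, Gbp9 in 17, Irgm1 in 11, Irgm2 in 9 and Gbp7 in 8. Leaving out cDC1 KO replicate 2, or replicate 2 or 3 of cDC1 WT, brought the number called to 3. These fits called 282, 247 and 263 of all genes higher, against 483 in the fit reported, and 64, 71 and 83 lower, against 231. The number of GTPases called was 4 without replicate 1 or 3 of cDC1 KO, replicate 2 or 3 of cDC2 KO, or cDC2 WT replicate 2. Calls over all genes in those fits ran from 278 to 417 higher and from 66 to 190 lower. Subset markers moved along with the genotype in cDC1. Of the 8 cDC1 markers, Itgae, the integrin chain CD103, was called lower, at 10.8 ± 0.631 CPM in KO and 176 ± 40.2 CPM in WT (log2 fold change -4.02, SE 0.66, edgeR adjusted p = 0.00296), and none was called higher. Of the other cDC1 markers, Xcr1 averaged 457 CPM in KO and 999 CPM in WT (edgeR adjusted p = 0.302), and Cd8a 1509 CPM in KO and 996 CPM in WT (edgeR adjusted p = 0.744). A list of 8 cDC2 markers summed to 516 to 522 CPM in cDC1 KO libraries and 65.8 to 85.9 CPM in cDC1 WT libraries, with 7 of the 8 called higher and none at 0. In cDC2 that sum was 2115 to 2561 CPM in libraries labelled KO and 2041 to 2254 CPM in WT libraries. A list of 6 monocyte markers summed to 1191 to 1369 CPM in cDC1 KO and 520 to 578 CPM in cDC1 WT libraries; 1 of its 5 tested genes, Ccr2, rose, and Vcan had no read in cDC1 WT. Ccr9 of the plasmacytoid dendritic cell list (log2 fold change -1.98, edgeR adjusted p = 0.0287) and Vcam1 of the macrophage list (-0.87, edgeR adjusted p = 0.0475) were called lower in KO cDC1. The other 5 and 7 genes of these lists were not called and had fold changes of both signs. Median log2 fold changes of the lists in cDC1 were 0.49 and -0.55. The plasmacytoid list summed to 132 to 153 CPM in cDC1 KO and 138 to 163 CPM in cDC1 WT libraries. Most of that sum was Bst2, which averaged 95.2 CPM in cDC1 KO and 90.6 CPM in cDC1 WT. The macrophage list summed to 136 to 210 CPM in cDC1 KO and 128 to 238 CPM in cDC1 WT libraries. The part of these markers in the GTPase differences was not tested. Gbp2, Gbp3, Gbp5, Gbp9, Irgm1 and Iigp1, or 6 of the 10, had a lowest cDC1 KO library above the highest of all 6 cDC2 libraries, as did 18.7% of genes tested. In bulk RNA, more cells with a transcript and more transcript per cell cannot be told apart.

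In cDC2 the same comparison gave no call. None of the 10 GTPases passed the test between cDC2 libraries labelled KO and cDC2 WT libraries, and the share of all genes called was 0% in both directions. Without adjustment, 271 genes and 2 of the GTPases had p below 0.05, and the alternative tests, DESeq2 and limma-voom, also called no gene. The Zfp366 level did not bear out the KO label in these libraries. The fold changes leaned below 0, with 8 of 10 negative and a median of -0.39 against 0.02 over all genes tested.

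The GTPases with an unadjusted p below 0.05 in cDC2 were regulatory IRGs. Irgm1 had 38.9, 23.6 and 22.7 CPM in cDC2 libraries labelled KO and 53.2, 38.5 and 39.3 CPM in cDC2 WT libraries. Replicate 1 was the highest of each group, and the KO-labelled one lay within the WT range (log2 fold change -0.62, SE 0.27, edgeR adjusted p = 1). Irgm2 had 15.7, 13.0 and 14.8 CPM in libraries labelled KO and 25.6, 20.9 and 17.5 CPM in WT libraries, without overlap (log2 fold change -0.56, SE 0.25, edgeR adjusted p = 1). Ifi47 and Iigp1 also had all 3 libraries labelled KO below all 3 WT libraries. Such a separation downwards was seen in 3 of the 10 members and in 2.55% of all genes tested. The opposite separation was seen in none of the 10 and in 3.33% of genes.

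Ifi47 was the steadiest of these, at 44.1, 44.6 and 46.2 CPM in cDC2 libraries labelled KO and 70.4, 62.3 and 63.0 CPM in cDC2 WT libraries (log2 fold change -0.54, 95% interval -1.11 to 0.04). Iigp1 was barely detected, with 15, 33 and 22 reads in libraries labelled KO and 29, 33 and 12 reads in WT libraries. Gbp2 was level in the range of its replicates, at 35.3, 31.8 and 38.6 CPM in libraries labelled KO and 32.2, 40.5 and 48.3 CPM in WT libraries (log2 fold change -0.19, 95% interval -0.56 to 0.18). That interval lies below the Gbp2 difference in cDC1. The remaining 5 members, with log2 fold changes from -0.92 (Gbp7) to 0.25 (Gbp5), had overlapping groups. With replicates 2 and 3 alone, Irgm1 and Gbp7 were called lower, in a fit that also called 451 genes higher and 588 lower.

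**Figure D3:**
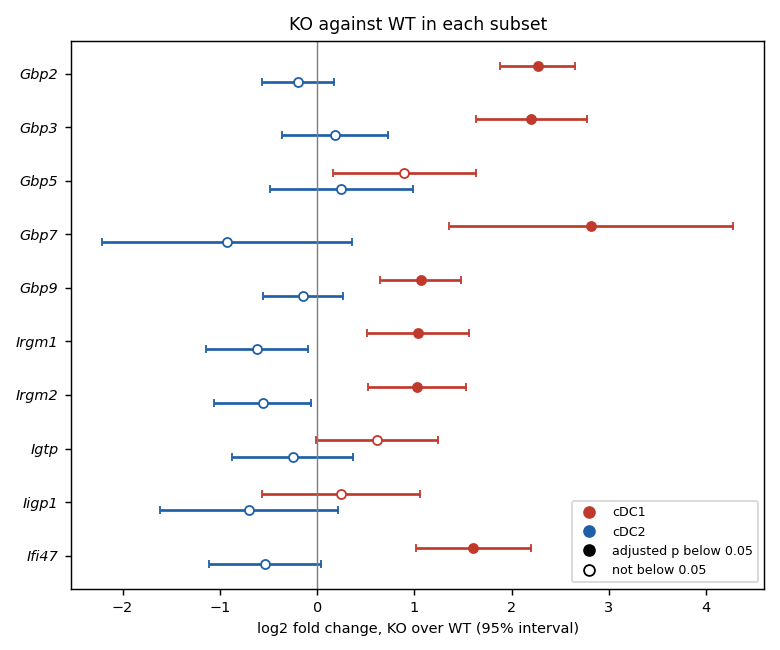
Log2 fold change of KO over WT for the 10 GTPases in cDC1 (red) and cDC2 (blue). Bars are nominal 95% intervals of 1.96 SE, which ignore the small number of libraries. Filled points have an edgeR adjusted p below 0.05. In cDC1 all points lie above 0 and 7 are filled, while in cDC2 none is filled and 8 lie below 0.

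The difference between these effects was then tested directly, as the KO effect in cDC1 minus that in cDC2. It was positive for all 10 GTPases and called for 3: Gbp2 (log2 difference 2.46, SE 0.27, edgeR adjusted p = 0.000842), Ifi47 (2.14, SE 0.42, edgeR adjusted p = 0.0235) and Gbp3 (2.02, SE 0.40, edgeR adjusted p = 0.0245). Among all genes tested, 1.27% had a called difference in this direction and 0.149% in the other. Irgm2 (1.59, edgeR adjusted p = 0.0514), Irgm1 (1.66, edgeR adjusted p = 0.053), Gbp9 (1.21, edgeR adjusted p = 0.0747) and Gbp7 (3.74, edgeR adjusted p = 0.103) missed the threshold. Those of Igtp, Iigp1 and Gbp5 were 0.87, 0.95 and 0.65 on the log2 scale, with intervals that included 0. Both effects enter this difference, so it is not independent of them, and its cDC2 term rests on libraries labelled KO whose Zfp366 level was not lower. With the mouse pool as a block, which joins the cDC1 and cDC2 libraries of the same mice, Gbp2 alone remained called, and the edgeR adjusted p was 0.103 for Ifi47 and 0.136 for Gbp3. A single call was also left when any 1 of 6 libraries was dropped: replicate 1 or 3 of cDC1 KO, replicate 2 or 3 of cDC2 KO, or replicate 2 of either WT group. Dropping cDC1 WT replicate 1 gave 6 calls, with 372 of all genes called higher and 129 lower. Dropping cDC2 WT replicate 1 gave 5, with 189 of all genes called higher and 35 lower.

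**Figure D4:**
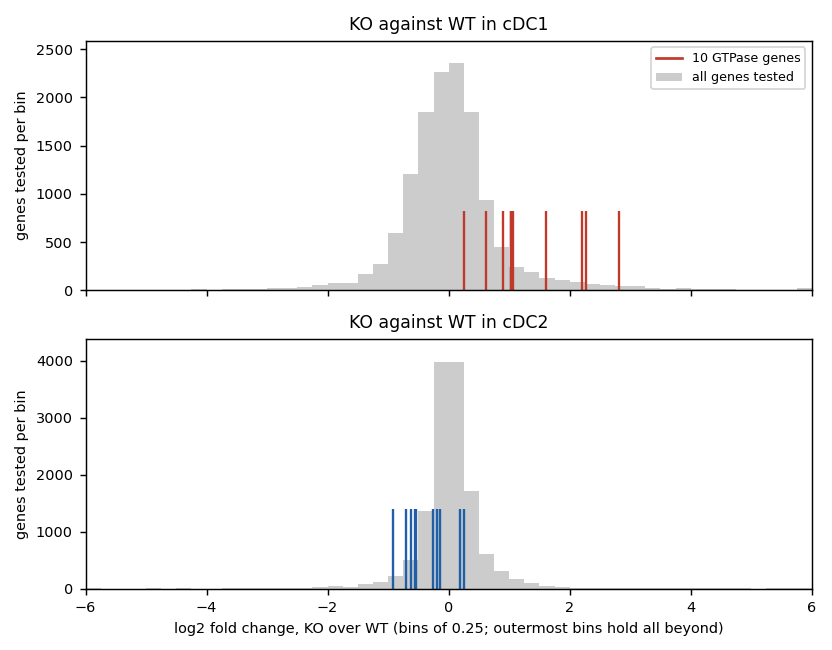
Log2 fold changes of KO over WT for all 13415 genes tested (grey, in bins of 0.25, with the outermost bins holding all values beyond) and for the 10 GTPases (coloured lines), in cDC1 above and cDC2 below. The GTPase lines run from 0.25 to 2.82 in cDC1 and from -0.92 to 0.25 in cDC2.

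The subsets were also compared within each genotype. In WT mice 6 of the 10 GTPases were lower in cDC1 than in cDC2 and 1 was higher, against 10.9% lower and 10.4% higher among all genes tested. The exception was Iigp1, with 3.68, 11.4 and 10.99 CPM in cDC1 and 1.02, 1.53 and 1.09 CPM in cDC2 (log2 fold change 2.83, SE 0.46, edgeR adjusted p = 0.000777). Gbp7 had the lowest log2 fold change, -3.81 (SE 0.76, edgeR adjusted p = 0.00326), from 0.520 to 0.880 CPM in cDC1 and a wide 1.16 to 17.8 CPM in cDC2. Without cDC2 WT replicate 3 its value was -2.96 (edgeR adjusted p = 0.012), and with limma-voom it was -2.75 and not called (adjusted p = 0.137). Ifi47 followed at -1.81 (SE 0.30, edgeR adjusted p = 0.000906) and Gbp3 at -1.47 (SE 0.29, edgeR adjusted p = 0.0027). Irgm2, Gbp9 and Gbp2 were lower by smaller steps, at -0.97, -0.67 and -0.62 on the log2 scale. These 3 calls were lost with the mouse pool as a block, where the edgeR adjusted p was 0.0638 for Irgm2, 0.0965 for Gbp2 and 0.118 for Gbp9, leaving 4. With 1 library left out, the call for Gbp2 held in 4 of 12 fits and that for Gbp9 in 3 of 12. Gbp5, Irgm1 and Igtp were not called.

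Between cDC1 KO and cDC2 libraries labelled KO, 4 of the 10 were higher in cDC1 and none lower, against 8.45% higher and 8.43% lower among all genes tested. Iigp1 was higher again (log2 fold change 3.78, SE 0.48, edgeR adjusted p = 0.00017), and so were Gbp2 (1.84, SE 0.19, edgeR adjusted p = 4.27e-05), Gbp5 (1.44, SE 0.38, edgeR adjusted p = 0.022) and Irgm1 (1.25, SE 0.27, edgeR adjusted p = 0.00721). For 9 of the 10 every cDC1 library was above every cDC2 library, which held for 25.1% of all genes tested. Gbp7 was the exception, with 3.46 to 6.44 CPM in cDC1 KO and 4.07 to 6.20 CPM in cDC2 labelled KO. Gbp5 lost its call when any 1 of 5 libraries was left out, cDC1 KO replicates 1, 2 and 3 and cDC2 KO replicates 2 and 3, with edgeR adjusted p between 0.0575 and 0.0918; the pool block changed no call in this comparison. These comparisons use the libraries of the genotype comparisons over again and are not further evidence for them.

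**Figure D5:**
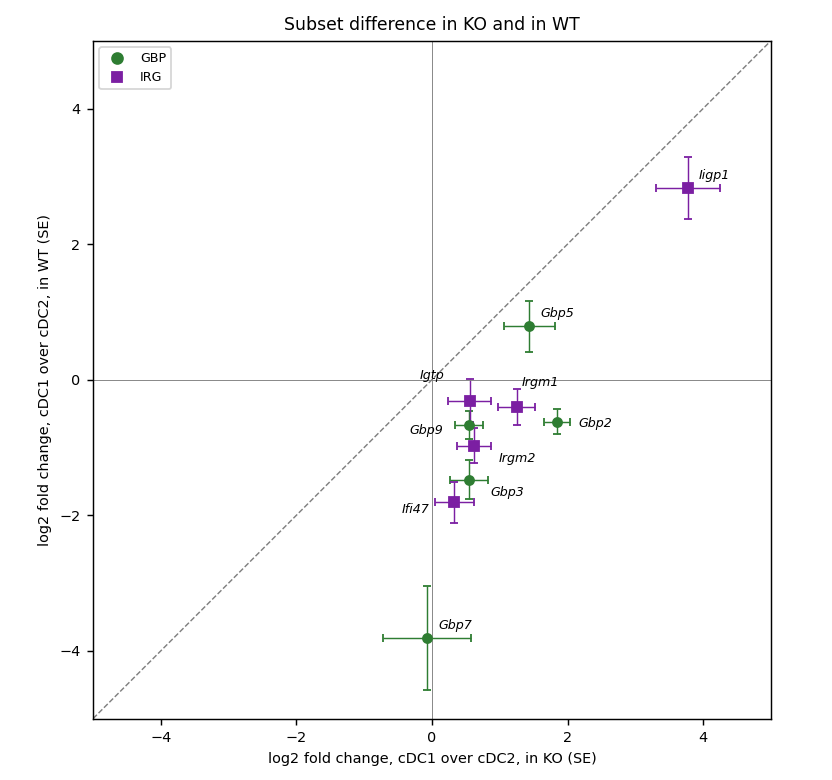
Log2 fold change of cDC1 over cDC2 in KO (x axis) and in WT (y axis) for the 10 GTPases, with SE bars; GBPs are circles, IRGs squares, and the dashed line marks equal values. All 10 points lie below the dashed line, with Iigp1 high on both axes at 3.78 and 2.83 and Gbp7 lowest in WT at -3.81.

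Levels of different genes can be set side by side only per transcript length, here as RPKM (CPM per kilobase of the deposited gene length). In cDC1 KO the order of mean RPKM was led by Gbp2 at 51.4 ± 3.06 (SD, n = 3), ahead of Ifi47 at 33.8 ± 3.71 and Irgm1 at 30.3 ± 4.15, which did not differ beyond their spread. Gbp9 followed at 22.2 ± 1.54 RPKM. Igtp at 13.3 ± 0.882 and Gbp5 at 12.3 ± 0.422 RPKM were within their spread of each other. Gbp3 stood at 8.86, Irgm2 at 6.32, Iigp1 at 3.29 and Gbp7 at 0.835 RPKM. In cDC1 WT Irgm1 came first, at 14.8 ± 3.56 RPKM, within the spread of Ifi47 at 11.1 ± 5.08 and Gbp2 at 10.7 ± 0.466. In cDC2 Ifi47 led in both genotypes, at 26.9 ± 0.649 RPKM in libraries labelled KO and 39.0 ± 2.66 RPKM in WT libraries, and Iigp1 was last at 0.241 and 0.388 RPKM. The makeup of the summed level shifted with this: Gbp2 supplied 27.7% ± 0.584 of the summed CPM in cDC1 KO and 14.8% ± 2.14 in cDC1 WT.

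Reads can be split or lost between near-identical copies, and how the authors handled such reads is not given in the sources used here. Of the 50-base words in the GENCODE transcripts of each gene, 12.8% of those of Gbp7 also occur in other genes (mostly the pseudogene Gm43802), 12.3% of those of Igtp in Irgm2, and 9.56% of those of Gbp9, mostly in Gbp8. The share was 7.36% for Irgm2, 4.79% for Gbp3, 3.71% for Ifi47, 3.19% for Iigp1, 2.07% for Gbp2, 0.995% for Irgm1 and 0.234% for Gbp5. The GENCODE span of the gene Irgm2 overlaps the RefSeq span of Igtp, and that of Gbp8 overlaps the span of Gbp9. Both overlaps are on the same strand, so the counts of these pairs are uncertain. Ifi47 overlaps Olfr56 on its strand and the pseudogene Gm12188 on the other.

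Relatives outside the 10 members leaned the same way in cDC1. Of 19 other GBPs, IRGs, Mx proteins and giant GTPases, 18 were tested. In KO cDC1 4 rose and none fell, with a median log2 fold change of 1.13. Among all genes tested, 3.6% rose and 1.72% fell there. Gbp4, whose gene lies with the GBPs of chromosome 5, had 72.9 ± 6.44 CPM in cDC1 KO and 15.9 ± 6.12 CPM in cDC1 WT (log2 fold change 2.20, SE 0.38, edgeR adjusted p = 0.00443). Gbp8, which shares sequence with Gbp9, had 38.5 ± 8.76 CPM in KO and 10.6 ± 0.83 CPM in WT (1.86, SE 0.35, edgeR adjusted p = 0.00731). Gm12185 and Gm12250, both named as predicted genes, also rose, by 1.57 and 1.64 on the log2 scale. The interferon-induced Mx2 had 4.77 ± 1.55 CPM in cDC1 KO and 2.76 ± 0.622 CPM in cDC1 WT, which was not called. In cDC2 none of the 18 was called, with a median of -0.18. The KO effect differed between the subsets for Gbp4 and Gm12250, by 2.40 and 2.59 on the log2 scale. A called difference in this direction was seen for 1.27% of all genes tested.

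Upstream of these genes, interferon messages themselves were near the floor. Ifng, Ifnb1, Ifna2, Ifna4, Ifnl2 and Ifnl3 had too few reads to be tested, and Ifng averaged 0.0939 ± 0.0472 CPM in cDC1 KO and 0.321 ± 0.373 CPM in cDC1 WT. Of 6 receptor genes, 1 rose in KO cDC1: Ifnar2, a chain of the type I interferon receptor, at 112 ± 12.6 CPM in KO and 63.9 ± 2.40 CPM in WT (log2 fold change 0.81, SE 0.21, edgeR adjusted p = 0.0411). Ifnar1 and Ifngr2, the partner chains of the type I and type II receptors, were not called, nor were Ifngr1 and Il10rb. Over all genes tested, the shares that rose and fell in KO cDC1 were 3.6% and 1.72%. Of 13 signalling genes, 1 rose in KO cDC1 and none fell. It was Irf1, the factor that binds ISREs in GBP promoters, at 196 ± 19.2 CPM in KO and 106 ± 7.12 CPM in WT (log2 fold change 0.89, SE 0.22, edgeR adjusted p = 0.0329). In cDC2 Irf1 had 59.6 ± 3.60 CPM in libraries labelled KO and 89.6 ± 26.5 CPM in WT libraries (log2 fold change -0.59, not called), and the difference of the effects was 1.48 (SE 0.31, edgeR adjusted p = 0.0334). Irf7 and Irf2 in cDC1 and Irf9 in cDC2 were not called.

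Of 9 genes that damp interferon signalling, 2 rose in KO cDC1 and none fell, against 3.6% and 1.72% of all genes tested. Socs3, an inhibitor of cytokine receptor signalling, had 71.0 ± 31.0 CPM in KO and 14.5 ± 1.38 CPM in WT (log2 fold change 2.29, SE 0.30, edgeR adjusted p = 0.000614). Ptpn6, the phosphatase SHP-1, had 379 ± 40.1 CPM in KO and 149 ± 21.9 CPM in WT (1.35, SE 0.20, edgeR adjusted p = 0.00134). Usp18, which blocks the type I receptor, had 50.5 ± 2.22 CPM in KO and 28.4 ± 7.48 CPM in WT (0.83, SE 0.22, edgeR adjusted p = 0.0502), and Trim21 was not called in either subset. No gene was called in cDC1 or cDC2 among 15 genes of vacuole targeting and autophagy conjugation, which include Atg3, the enzyme that lipidates GABARAP proteins, and Lgals3. The same held for 7 genes of prenylation, such as Pggt1b, which help to anchor Gbp2 and Gbp5 in membranes, and for 8 genes of GBP-linked inflammasomes, Casp1, Casp4, Nlrp3, Aim2 and Il1b among them. Casp1 had 60.7 ± 1.01 CPM in cDC1 KO and 39.5 ± 7.53 CPM in cDC1 WT (log2 fold change 0.62, edgeR adjusted p = 0.118).

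The genes with the most similar pattern were taken from 8366 well-expressed genes outside the families, by the root mean square difference in centred log2 CPM from the members' median over the 12 libraries. They were Ifnar2 (0.23), Hsh2d (0.24), Pea15a (0.24), Lgals9 (0.25), Prickle3 (0.25) and Mcl1 (0.26), against a median of 0.63 over the genes compared. Of the members themselves, Gbp9 (0.22) and Irgm2 (0.27) were nearest to their common median and Gbp7 (1.28) and Iigp1 (1.63) farthest. Lgals9 had 70.8 CPM in cDC1 KO, 25.2 CPM in cDC1 WT, 34.1 CPM in cDC2 labelled KO and 40.0 CPM in cDC2 WT libraries on average.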

How the data were processed

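Libraries were polyA RNA prepared with a TruSeq kit, per the labels. The submitters' processing notes name GRCm38 (mm10) and featureCounts, with which the authors made the counts; versions and the handling of multi-mapping reads are not given in the sources used here. The deposited table holds raw counts per Entrez gene for 27179 genes, with no normalization, and a gene length in bases. RefSeq tables gave symbols for 25275 of them. The rest was computed here: edgeR 4.0.16 in R 4.3.3, filterByExpr (13415 genes kept), TMM scaling, 4 group means over all 12 libraries, robust quasi-likelihood F tests, Benjamini-Hochberg adjustment over all genes tested and calls below 0.05. SE was taken from the F statistic (the size of the change divided by its root), and 95% intervals span 1.96 SE each way. This multiple ignores the small number of libraries, so the intervals are nominal and narrower than the tests imply. For Gbp5 between the WT subsets, the interval of 0.045 to 1.53 left out 0 although the unadjusted edgeR p was 0.0588. With 3 pools per group, precision is limited by the number of libraries; depth was 11330503 to 36761685 counts per library. The fit was tested on simulated data.

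Comparisons were KO against WT in each subset, the difference of these effects, and cDC1 against cDC2 in each genotype. The 20 alternatives (19 for the difference) covered scaling, filter, DESeq2 1.42.0, limma-voom (limma 3.58.1), gene length offsets, the libraries fitted, a replicate block and each library left out in turn. By the labels, each mouse pool gave both subsets; residuals of the 2 libraries from a pool correlated at 0.259, 0.143 and 0.144 in KO and -0.205, -0.111 and -0.068 in WT. All 10 members were named; of each other list, up to 3 genes with the smallest p in cDC1 and 2 in cDC2, and the 6 genes nearest in pattern. Members, lists and rules were chosen with earlier results of these data known. Gene starts were searched in RefSeq promoter windows (GRCm38.p6) for letter matches. The Iigp1 promoter was not used here.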

Additional observations from a re-analysis of the deposited data

Results flagged for a closer look

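The KO effect was larger in cDC1 than in cDC2 for 3 GTPases by a test of the difference itself (edgeR's quasi-likelihood test of the interaction), which is what brought them here. The log2 difference was 2.46 for Gbp2, with all 3 cDC1 KO libraries above all cDC1 WT libraries and overlapping groups in cDC2. It was 2.14 for Ifi47, whose libraries labelled KO were all above WT in cDC1 and all below WT in cDC2. It was 2.02 for Gbp3, with separate groups in cDC1 and overlapping ones in cDC2. The Gbp2 call held in all 19 alternatives, that of Ifi47 in 12 and that of Gbp3 in 9.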

How the results depend on the processing

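The number of GTPases called between genotypes in cDC1 was 7 in the fit reported and 4 with the replicate number as a block. With 1 library left out it ran from 3 to 8. Of all genes, 483 were called higher and 231 lower in the fit reported, and 532 and 201 with the block. The fits with 3 GTPases called 247 to 282 genes higher and 64 to 83 lower. The 8 came without cDC1 WT replicate 1, where far more genes were called in both directions than in the fit reported. That count of GTPases is therefore not comparable. In cDC2 the number of GTPases called was 0, and 2 with replicates 2 and 3 only. For the difference of the effects it was 3, against 7 with DESeq2, 5 with limma-voom, 5 with gene length offsets, 7 with replicates 2 and 3 only, 1 with the mouse pool as replicate block and 1 to 6 with 1 library left out. Of all genes, DESeq2 called 353 higher and 127 lower, limma-voom 151 and 15, and gene length offsets 257 and 45. Replicates 2 and 3 only called 2727 higher and 2430 lower of 13461 genes, so their count of GTPases is not comparable. For cDC1 against cDC2 the number of GTPases called was 7 in WT, and 4 with limma-voom, with only the 6 libraries compared and with the pool block. In KO it was 4, and 7 with only the 6 libraries compared and with replicates 2 and 3 only. Of all genes, the 6 libraries alone called 2063 higher and 2109 lower of 12874, and replicates 2 and 3 alone 3360 higher and 3260 lower of 13461. No called value changed sign. Of uncalled ones, Iigp1 in cDC1 became -0.21 with replicates 2 and 3 only and ran from -0.11 (without cDC1 WT replicate 1) to 0.49 with 1 library left out. In cDC2 Gbp7 became 0.12 with limma-voom, and with 1 library left out Gbp5 ran from -0.11 to 0.60 and Gbp3 from -0.10 to 0.38, both lowest without cDC2 WT replicate 3. Gbp7 between the KO subsets became 0.30 with replicates 2 and 3 only and ran from -0.38 to 0.14 with 1 library left out; it was above 0 without cDC1 KO replicate 1 (0.10), cDC1 KO replicate 3 (0.03) or cDC2 KO replicate 1 (0.14). The cause was not tested in any of these cases; fits with fewer libraries also re-estimate the spread.

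The labels do not say whether replicate numbers pair KO with WT libraries, though in the column names the codes of the same replicate number end alike. Residuals of KO and WT libraries with the same number correlated at 0.024, -0.067 and 0.106 in cDC1, and at -0.051, -0.047 and -0.055 in cDC2. Such low values cannot decide the pairing, since WT libraries from the same mouse pool correlated at -0.205, -0.111 and -0.068. Counting error limits Gbp7 in cDC1 WT (9 to 16 reads) and Iigp1 in cDC2 (12 to 33 reads).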

Other observations

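In cDC1 the libraries of a group did not vary in step across the 2 families. In cDC1 WT, replicate 1 was the lowest of the 3 for 5 of 5 IRGs and the highest for 4 of 5 GBPs, with an IRG sum of 56.3 CPM against 105 CPM in both other replicates and a GBP sum of 102 CPM against 88.1 and 80.7 CPM. In cDC1 KO, replicate 1 was the highest for 5 of 5 IRGs, while its GBP sum, 271 CPM, lay within 2 CPM of those of the other replicates (272 CPM each). In cDC2 libraries labelled KO both sums had the same order, with GBP sums of 130, 120 and 126 CPM and IRG sums of 124, 94.6 and 102 CPM in replicates 1, 2 and 3, and in cDC2 WT the GBP sums were 105, 158 and 145 CPM and the IRG sums 175, 150 and 134 CPM. Across genes, deviations of a library from the mean of all libraries ran with gene length to unequal degrees, with Spearman's rho of 0.45, -0.24 and -0.34 in cDC1 WT replicates 1, 2 and 3 and 0.30 to 0.41 in cDC1 KO. In cDC2 rho was 0.21, -0.23 and -0.20 in libraries labelled KO and -0.33, -0.09 and -0.10 in WT libraries. The trend thus differed between KO and WT libraries of cDC1, and its part in their GTPase differences or in the family difference was not tested. With gene length offsets 6 GTPases were called in cDC1, where 603 of all genes were called higher and 377 lower. The log2 fold change of Irgm2 in that fit was 0.88 (edgeR adjusted p = 0.0653).

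Gbp7 in cDC2 WT varied more than any other member in any group. It had 33, 197 and 195 reads in replicates 1, 2 and 3 (1.16, 9.16 and 17.8 CPM), a 15.4-fold range, whereas in cDC2 libraries labelled KO it ran from 4.07 to 6.20 CPM. In the same libraries Gbp5 and Gbp3 were lowest in replicate 3, at 4.65 and 7.65 CPM, the replicate in which Gbp7 was highest.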
